A study of Homo sapiens with 12 samples.

Results

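KCNJ13 and PTGDS are the 2 genes, of 56638 in the table, whose RNA had the highest fitted rise when 501Mel cells were exposed to Vemurafenib (Vem). They were chosen by their fitted log2 difference in that comparison, among called genes whose group with more RNA averaged 50 counts or more and whose libraries did not overlap, so their values under Vem against vehicle describe the choice and are given without a test. 501Mel is an established human BRAF-mutant melanoma cell line. Cells were kept for 48 h with DMSO (vehicle), with 1 µM Vem, an inhibitor of mutant BRAF, with 5 µM resveratrol (RSV), used in the study as an antagonist of the Aryl hydrocarbon Receptor (AhR), with 10 nM TCDD, a dioxin that activates AhR, or with RSV+Vem or RSV+TCDD. The sample label of RSV+TCDD gives 1 nM TCDD where the treatment protocol gives 10 nM. Each group has 2 libraries of stranded mRNA sequencing from this single line, and no label says that they came from separate cultures, so p-values measure only the spread between these libraries.

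KCNJ13 encodes Kir7.1, an inwardly rectifying potassium channel that lets potassium ions pass at voltages near rest, is best known from the apical membrane of the retinal pigment epithelium, and acts in pigment pattern formation in fish. PTGDS encodes lipocalin-type prostaglandin D synthase, which turns prostaglandin H2, the product of the cyclooxygenases, into prostaglandin D2 and is also secreted as a carrier of retinoids and other lipophilic molecules. Both genes are known from pigment cells, and neither is a standard target gene of AhR.

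The promoters are shown because RSV and TCDD act on AhR, whose binding core is GCGTG, and because MITF, the transcription factor of the melanocyte lineage, binds E-boxes such as CACGTG and CATGTG. Each sequence runs from 250 bases before to 50 bases after the annotated start, 5′ to 3′ on the strand of the gene, from RefSeq on GRCh38.p14. Capitals mark a match to a searched motif on either strand. The KCNJ13 window is chr2:232776516-232776815, minus strand, and the PTGDS window is chr9:136977254-136977553, plus strand.
KCNJ13: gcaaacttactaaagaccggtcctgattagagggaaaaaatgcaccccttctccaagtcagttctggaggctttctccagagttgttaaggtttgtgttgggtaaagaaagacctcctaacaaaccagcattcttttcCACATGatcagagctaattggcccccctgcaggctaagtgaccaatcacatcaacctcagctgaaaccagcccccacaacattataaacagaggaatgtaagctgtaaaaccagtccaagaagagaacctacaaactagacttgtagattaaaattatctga
PTGDS: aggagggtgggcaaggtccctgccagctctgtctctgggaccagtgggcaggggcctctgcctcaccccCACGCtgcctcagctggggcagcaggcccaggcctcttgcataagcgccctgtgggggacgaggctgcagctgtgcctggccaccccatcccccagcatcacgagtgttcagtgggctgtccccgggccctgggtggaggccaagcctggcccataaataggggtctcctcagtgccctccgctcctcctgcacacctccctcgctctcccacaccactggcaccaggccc
The KCNJ13 window held CACATG, the reverse complement of CATGTG, starting 112 bases before the start, a motif present in 11.1% of 35116 promoter windows of this length. The PTGDS window held CACGC, the reverse complement of GCGTG, starting 181 bases before the start, and 36.5% of the windows held this motif. CACGTG, found in 7.26% of windows, and the AP-1 motif TGACTCA, found in 4.95%, were in neither. GC content was 43.0% for KCNJ13 and 68.7% for PTGDS, with a median of 58.7% over all windows.

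On GRCh37, the build of the alignments, KCNJ13 (ENSG00000115474) spans chr2:233630512-233641275 on the minus strand in 3 exonic segments of 3636 bases in all. It lies within GIGYF2, a translation regulator on the opposite strand that is transcribed across it and shares 810 exonic bases with it. An annotated noncoding RNA on the same strand as KCNJ13 (ENSG00000241409) shares 271 exonic bases with it. PTGDS (ENSG00000107317) spans chr9:139869544-139876194 on the plus strand in 9 exonic segments of 2712 bases, and an annotated read-through gene on the same strand (ENSG00000284341) shares 634 of its exonic bases. GIGYF2 had 978 to 2518 counts per library in the 12 libraries, far above KCNJ13. Its fitted log2 difference with Vem was 0.18 ± 0.09 (SE; edgeR quasi-likelihood test, adjusted p by Benjamini-Hochberg = 0.121).

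The counts on genes ranged from 8378655 in RSV+Vem replicate 2 to 25076925 per library, and the common biological coefficient of variation was 0.0915. The RNA integrity numbers were 8.6 and 8.7 in RSV+Vem and 9.1 to 9.7 in the other libraries. Melanocyte markers were high throughout, with a summed level between 12940 and 56680 CPM (counts scaled to library size by the trimmed mean of M values, TMM). Leukocyte markers summed to at most 1.52 CPM, and keratinocyte markers summed to between 13.7 and 26.0 CPM, mostly from KRT10, with KRT5 and KRT14 at 1 count or fewer in each library. All 16 genes of a MAPK output list fell with Vem under TMM and spike-in scaling, against 26.9% of all tested genes under TMM.

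Directions are relative to the bulk of genes, which TMM holds near 0. Scaled to the ERCC spike-in controls instead, the median of all genes moved to -0.68 on the log2 scale for Vem against vehicle, -0.52 for RSV+Vem against RSV and -1.02 for RSV+TCDD against RSV. Control sequences were 0.0389% and 0.0903% of counts in the RSV+Vem replicates and 0.0630% and 0.0936% in RSV+TCDD. In the other groups replicates were closer, such as 0.0442% and 0.0447% in Vem and 0.0349% and 0.0413% in RSV. The part of this scatter in calls lost under spike-in scaling was not tested. KCNJ13 and PTGDS kept their rise with Vem under that scaling, and smaller changes of other genes named further on that turned sign or lost their call are given with the values.

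In vehicle both genes were close to the limit of what was counted. KCNJ13 had 9 and 15 counts, or 0.455 and 0.607 CPM, and PTGDS had 13 and 16 counts, or 0.658 and 0.647 CPM. With Vem, KCNJ13 had 265 and 254 counts, or 18.4 and 19.5 CPM, and PTGDS had 276 and 257 counts, or 19.2 and 19.7 CPM. The vehicle and Vem libraries did not overlap for either gene, as the choice required. Mean CPM in vehicle and Vem was 0.531 ± 0.107 (SD, n = 2) and 19.0 ± 0.771 for KCNJ13, and 0.653 ± 0.0075 and 19.5 ± 0.393 for PTGDS. The fitted rise was 34.8-fold for KCNJ13 (log2 difference 5.12 ± 0.26, SE) and 29.6-fold for PTGDS (4.88 ± 0.21). Of the 16080 genes tested, 52.4% were called in this comparison, 25.5% as higher. In bulk RNA, more cells with the transcript and more transcript per cell cannot be told apart.

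RSV alone left both genes low. KCNJ13 had 25 and 29 counts, both at 1.51 to 1.52 CPM, and PTGDS had 33 and 29 counts, or 1.99 and 1.52 CPM. Both RSV libraries lay above both vehicle libraries for each gene, with fitted log2 differences of 1.48 ± 0.34 for KCNJ13 and 1.41 ± 0.28 for PTGDS, given without a test because the vehicle libraries took part in the choice. In this comparison 40.7% of all tested genes were called, 20.5% as higher and 20.2% as lower. The exact Poisson 95% interval of the summed counts, which covers counting error only, ran from 0.346 to 0.803 CPM in vehicle and from 1.14 to 1.98 CPM in RSV for KCNJ13. For PTGDS it ran from 0.437 to 0.937 CPM and from 1.33 to 2.23 CPM.

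**Figure D1:**
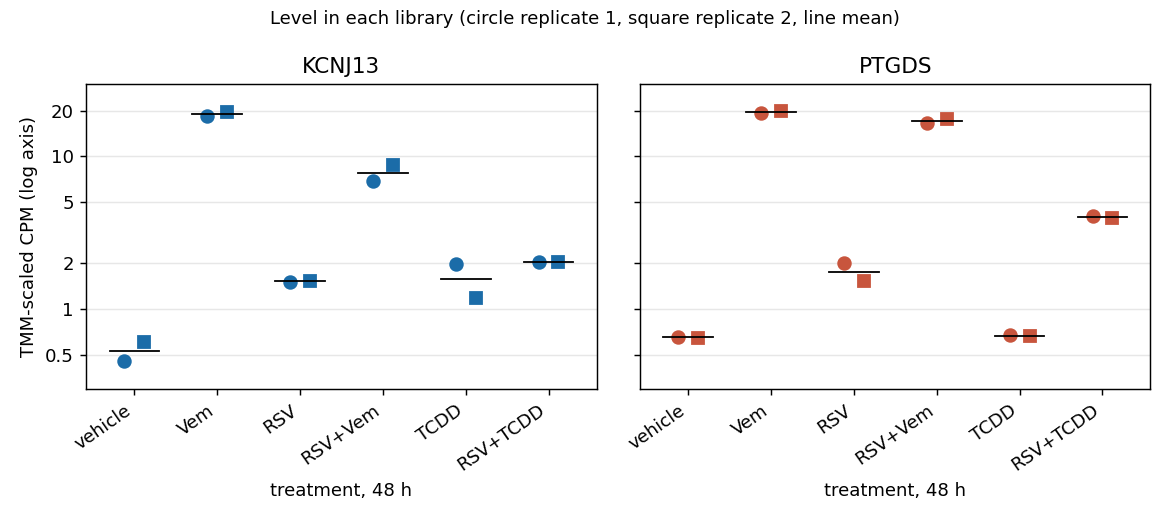
Level of KCNJ13 and PTGDS in each library, as TMM-scaled CPM on a log axis, for the 6 treatment groups; points are libraries and bars are the mean of both. The Vem libraries are the highest for both genes, RSV+Vem lies lower for KCNJ13 (6.92 and 8.77 CPM) than for PTGDS (16.7 and 17.5 CPM), and the rise from RSV to RSV+TCDD passed the test under TMM scaling for PTGDS and not for KCNJ13.

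The question put to the RSV+Vem group was how RSV changed the rise with Vem. Here the genes parted. KCNJ13 had 130 and 78 counts in RSV+Vem, or 6.92 and 8.77 CPM, well below both Vem libraries. PTGDS had 313 and 156 counts, or 16.7 and 17.5 CPM, just below both Vem libraries. The mean level was 7.84 ± 1.31 CPM for KCNJ13 and 17.1 ± 0.629 CPM for PTGDS (SD, n = 2), which is 41.3% of the Vem level for the first gene and 87.8% for the second. Fitted log2 differences of RSV+Vem from Vem were -1.30 ± 0.19 (2.46-fold lower) for KCNJ13 and -0.19 ± 0.15 for PTGDS, and the 95% interval of the second, from -0.50 to 0.12, includes 0. These values share the Vem libraries with the choice and were not tested.

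The rise with Vem in the presence of RSV compares groups that hold none of the vehicle or Vem libraries and was tested. The spread used in the test came from all 12 libraries, those of vehicle and Vem included. The choice favoured genes with a small spread there, so the log2 difference is free of the choice and the adjusted p is not. Both genes rose from RSV to RSV+Vem. For KCNJ13 the rise was 5.06-fold (log2 difference 2.34 ± 0.24, 95% interval 1.83 to 2.85; edgeR quasi-likelihood test, adjusted p by Benjamini-Hochberg = 2.18e-06). For PTGDS it was 9.74-fold (3.28 ± 0.19, 2.89 to 3.68; adjusted p = 1.02e-09, same edgeR test). Both were called as higher, as were 11.3% of all genes tested, 24.7% being called in either direction. Ordered by log2 difference, PTGDS stood 9th and KCNJ13 40th of 16080 genes. RSV+Vem had the lowest RNA integrity numbers and its replicate 2 the fewest counts, and their part in the result was not tested. Without that replicate the log2 difference of KCNJ13 was 2.19, the lowest value when any library was left out. With spike-in scaling both remained called, at 1.78 for KCNJ13 (edgeR adjusted p = 0.033) and 2.74 for PTGDS (edgeR adjusted p = 6.16e-05).

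Set side by side, the fitted rise with Vem was 34.8-fold without RSV and 5.06-fold with it for KCNJ13, and 29.6-fold and 9.74-fold for PTGDS. The interaction, the log2 rise with RSV less the log2 rise without, was -2.78 ± 0.39 for KCNJ13 and -1.60 ± 0.32 for PTGDS. It holds the vehicle and Vem libraries and is a description, beside 22.7% of all genes called in it. On the linear scale the gain in CPM was 18.4 without RSV and 6.33 with RSV for KCNJ13, so 34.3% of it was seen with RSV. For PTGDS the gain was 18.8 and 15.3 CPM, so 81.5% was seen. By arithmetic, the interaction is the difference of RSV+Vem from Vem less the difference of RSV from vehicle. For PTGDS it was made up of -0.19 and 1.41, so mostly of the higher level in RSV alone, and for KCNJ13 of -1.30 and 1.48, so of both in like measure.

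**Figure D2:**
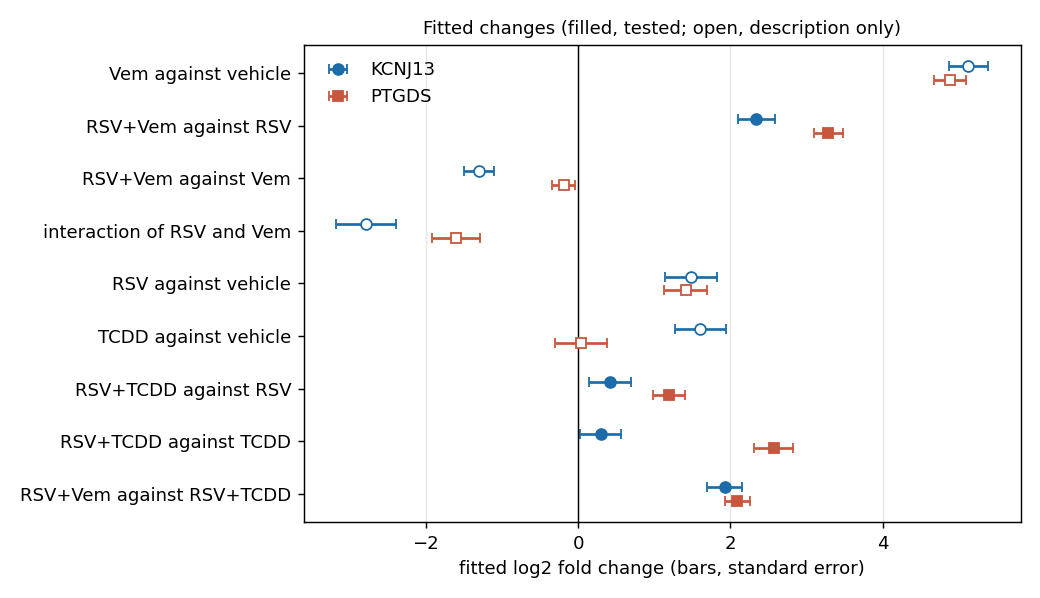
Fitted log2 differences of KCNJ13 and PTGDS in each comparison between treatment groups; points are edgeR estimates, lines their standard errors, filled symbols were tested and open ones are descriptions. KCNJ13 and PTGDS are set apart by RSV+Vem against Vem (-1.30 and -0.19), by TCDD against vehicle (1.60 and 0.04) and by RSV+TCDD against TCDD (0.30 and 2.57).

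With TCDD alone, KCNJ13 lay above its vehicle level and PTGDS did not. KCNJ13 had 44 and 16 counts with TCDD, or 1.99 and 1.18 CPM, both above vehicle and far apart from each other. PTGDS had 15 and 9 counts, or 0.677 and 0.662 CPM, next to its vehicle level. The fitted log2 differences from vehicle, not tested, were 1.60 ± 0.34 for KCNJ13 and 0.04 ± 0.34 for PTGDS. Without TCDD replicate 1 the value of KCNJ13 was 1.12 and without replicate 2 it was 1.87. Over all genes 6.73% were called with TCDD. A fibroblast marker list of which LUM, a matrix proteoglycan, made up most of the signal summed to 11.4 to 14.6 CPM in vehicle and 31.5 to 38.9 CPM with TCDD, with COL3A1 at 0 in both groups, and its part in the result was not tested.

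In RSV+TCDD, KCNJ13 had 40 and 43 counts, both at 2.03 CPM, and PTGDS had 80 and 84 counts, or 4.05 and 3.96 CPM. The KCNJ13 libraries lay just above those of RSV alone and of TCDD alone. The PTGDS libraries lay above every library of vehicle, RSV and TCDD. PTGDS was 5.92-fold higher in RSV+TCDD than in TCDD (log2 difference 2.57 ± 0.25, edgeR adjusted p = 6.4e-07; 18.6% of tested genes were called higher). Against RSV it was 2.29-fold higher (1.20 ± 0.21, edgeR adjusted p = 0.00253; 3.89% called higher). With scaling to the spike-in controls the difference from RSV was 0.16 (edgeR adjusted p = 0.775), where the median of all genes moved by -1.02 and PTGDS lay 1.18 above that median. For KCNJ13 neither difference passed the test, at 0.30 ± 0.27 against TCDD (95% interval -0.27 to 0.86, edgeR adjusted p = 0.416) and 0.42 ± 0.27 against RSV (-0.16 to 0.99, edgeR adjusted p = 0.414), and both turned negative under spike-in scaling, to -0.38 and -0.61, while lying 0.31 and 0.42 above the shifted median. These intervals leave room for a rise of KCNJ13 of nearly 1 on the log2 scale.

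The change of the RSV effect by TCDD was also described, with a comparison added after the counts were seen. The log2 rise with TCDD in the presence of RSV, less that without, was -1.19 ± 0.44 for KCNJ13 and 1.15 ± 0.40 for PTGDS. These values lie in opposite directions. This interaction was not tested for either gene because it holds the vehicle libraries, so neither value carries a call. Over all tested genes 0.149% were called in it, which does not place these 2 genes among them. The KCNJ13 value was -0.70 without TCDD replicate 1 and -1.45 without replicate 2. Spike-in scaling gave -1.70 for KCNJ13 and 0.61 for PTGDS, with the median of all genes at -0.52.

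Under RSV, both genes responded far more to Vem than to TCDD. From RSV+TCDD to RSV+Vem, KCNJ13 was 3.79-fold higher (log2 difference 1.92 ± 0.23, edgeR adjusted p = 6.64e-06) and PTGDS was 4.25-fold higher (2.09 ± 0.17, edgeR adjusted p = 5.57e-08), and 9.19% of all genes were called higher here. No library of one group overlapped the other for either gene, which with 2 libraries per group is a description only. An exact permutation test of 2 against 2 libraries cannot go below p = 0.333, so the fit across all genes was the only test able to make a call.

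In order of mean level, KCNJ13 ran from vehicle to RSV, TCDD, RSV+TCDD, RSV+Vem and Vem. The RSV libraries fell within the range of the TCDD libraries, so the order of those neighbours is not set, and RSV+TCDD did not pass the test against either. PTGDS ran from vehicle to TCDD, RSV, RSV+TCDD, RSV+Vem and Vem. Its vehicle and TCDD levels, 0.653 ± 0.0075 and 0.669 ± 0.0108 CPM (SD, n = 2), rest on 29 and 24 counts, whose exact Poisson 95% intervals of 0.437 to 0.937 and 0.430 to 0.999 CPM overlap almost fully. Per kilobase of exons, PTGDS was above KCNJ13 with Vem (7.18 ± 0.146 against 5.22 ± 0.212 CPM per kb) and with RSV+Vem (6.30 ± 0.232 against 2.16 ± 0.361), and below it with TCDD (0.247 ± 0.00399 against 0.435 ± 0.158). The lengths are all exonic bases annotated for each gene, and the annotation counted is not known. The SDs hold none of that uncertainty, so the order of the 2 genes depends on these lengths.

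Melanocyte markers were set beside the 2 genes and differed from both with RSV alone. Of 16 tested, 14 rose and 1 fell with Vem (median log2 difference 0.67, against -0.03 for all genes, of which 25.5% rose). From RSV to RSV+Vem 13 rose and 1 fell (median 0.47, against 0.002 for all genes, of which 11.3% rose and 13.4% fell), and with RSV alone 0 rose and 15 fell (median -0.66, with 20.2% of all genes lower). Beside those RSV values stand the fitted 1.48 and 1.41 of KCNJ13 and PTGDS. In RSV+Vem against Vem the markers ran from -1.59 to -0.45 (median -0.835, against 0.026 for all genes). The -1.30 of KCNJ13 lay within that range and the -0.19 of PTGDS above it, as a description. With spike-in scaling the marker median in that comparison was -0.89. Under spike-in scaling the marker medians were 0.02 with Vem and -0.06 from RSV to RSV+Vem, with 6 and 8 of the called markers turned in sign, and -0.85 with RSV. Most calls were lost under that scaling: 1 marker rose and 1 fell with Vem, 1 rose and 0 fell from RSV to RSV+Vem, and 3 fell with RSV. The glial marker MBP, a myelin gene that the melanocyte lineage also uses, had a mean level of 316 CPM in vehicle, 1199 in Vem, 198 in RSV and 482 in RSV+Vem. It moved with Vem as the 2 genes did, with GFAP and MOG at 0 to 1 count in every library, and its part in the result was not tested.

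**Figure D3:**
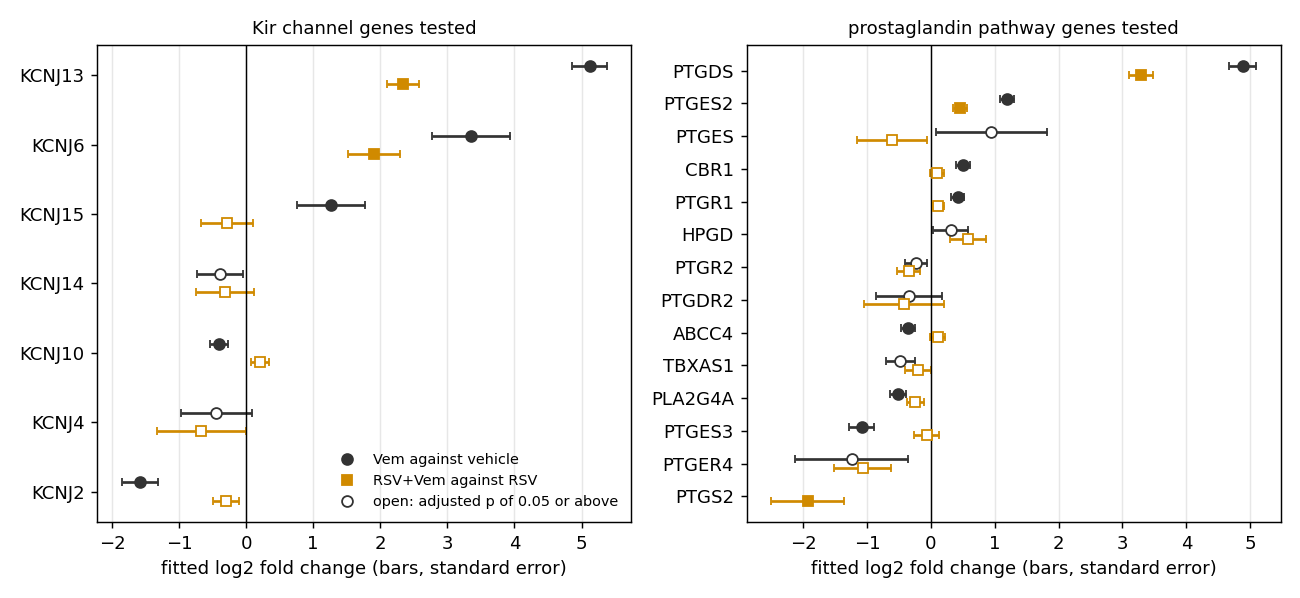
Fitted log2 differences with standard errors for the tested Kir channel and prostaglandin pathway genes, for Vem against vehicle (circles) and RSV+Vem against RSV (squares), filled where the adjusted p was below 0.05. KCNJ13 and PTGDS have the highest values. PTGS2 has no point for Vem against vehicle because both Vem libraries were at 0, and the KCNJ6 value for that comparison rests on 4 counts in vehicle.

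The other inward rectifier channels gave calls in both directions with Vem, as genes in general did. Of the 16 channels listed, 6 besides KCNJ13 passed the filter on low counts; with Vem 2 rose, 2 fell and 2 were not called (median -0.40, beside 25.5% of all genes higher and 26.9% lower), and from RSV to RSV+Vem 1 rose and 5 were not called (median -0.29, beside 11.3% and 13.4%). KCNJ6, a subunit of G-protein gated channels, had 2 counts in each vehicle library and 13 to 14 with Vem, a ratio of 11.0 with an exact 95% counting interval of 3.82 to 43.1. It also rose from RSV, with 10 counts in each library, to RSV+Vem, with 16 and 44 (log2 difference 1.91 ± 0.38, edgeR adjusted p = 0.00143). KCNJ15 rose with Vem by 1.27 ± 0.50 (edgeR adjusted p = 0.0415). Spike-in scaling kept the call of KCNJ6 with Vem (2.74) but not from RSV to RSV+Vem (1.42, edgeR adjusted p = 0.241), nor that of KCNJ15 (0.63, edgeR adjusted p = 0.571).

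KCNJ2, the classical strong inward rectifier Kir2.1, went the other way. It had 2.88 and 3.88 CPM in vehicle, 1.18 and 1.08 in Vem, 7.05 and 8.35 in RSV and 6.38 and 6.08 in RSV+Vem. It fell with Vem (log2 difference -1.59 ± 0.27, edgeR adjusted p = 7.03e-05), and its difference between RSV and RSV+Vem did not pass the test (-0.30 ± 0.19, edgeR adjusted p = 0.268). KCNJ10, the glial channel Kir4.1, fell with Vem by 0.40 on the log2 scale (edgeR adjusted p = 0.0211). With spike-in scaling KCNJ2 remained called with Vem (-2.23), and KCNJ10 did not pass (-1.05, edgeR adjusted p = 0.0836).

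The prostaglandin genes around PTGDS were also called at about the rate of all genes with Vem. Of 26 genes listed, 13 besides PTGDS were tested; with Vem 3 rose, 4 fell and 6 were not called (median -0.34, where 52.4% of all genes were called), and from RSV to RSV+Vem 1 rose, 1 fell and 11 were not called (median -0.20, where 24.7% were called). Upstream, PTGS2, the inducible cyclooxygenase that makes the substrate of PTGDS, had 9 and 15 counts in vehicle and 0 in both Vem libraries, at least 2.56-fold lower when each Vem library is set at the floor of 3 counts (edgeR adjusted p = 0.000765). It was also lower in RSV+Vem, with 2 and 5 counts, than in RSV, with 16 and 19 (log2 difference -1.93 ± 0.57, edgeR adjusted p = 0.0202). PTGS1, the constitutive cyclooxygenase, had at most 3 counts in any library. PLA2G4A, which frees arachidonic acid from membranes, fell with Vem (-0.51 ± 0.13, edgeR adjusted p = 0.00257). Spike-in scaling kept PTGS2 and PLA2G4A called with Vem, and PTGS2 missed the call from RSV to RSV+Vem (-2.45, edgeR adjusted p = 0.0653).

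Of the competing prostaglandin E synthases, the inducible PTGES had 1 to 8 counts in vehicle and 5 to 6 with Vem and did not pass the test (0.95 ± 0.87, edgeR adjusted p = 0.376). PTGES2 rose with Vem (log2 difference 1.19 ± 0.11, edgeR adjusted p = 6.12e-08), and it also rose from RSV to RSV+Vem (0.45 ± 0.11, edgeR adjusted p = 0.0065). PTGES3, also known as the HSP90 co-chaperone p23, fell with Vem (-1.09 ± 0.20, edgeR adjusted p = 0.0012). HPGDS, the other prostaglandin D synthase, and PTGDR, a receptor for prostaglandin D2, had 0 counts in every library, and PTGDR2, the other receptor, had 3 to 18 counts and did not pass the test with Vem (-0.34 ± 0.52, edgeR adjusted p = 0.605). Of the downstream reductases, PTGR1 rose by 0.42 ± 0.10 (edgeR adjusted p = 0.00165) and CBR1 by 0.50 ± 0.11 (edgeR adjusted p = 0.000936), and ABCC4, an exporter of prostaglandins, fell by 0.36 on the log2 scale (edgeR adjusted p = 0.0129). Under spike-in scaling PTGES3 stayed called with Vem (-1.74), ABCC4 and PTGES2 kept their sign without a call (-1.01 and 0.54), and PTGR1 and CBR1 with Vem (-0.23 and -0.15) and PTGES2 from RSV to RSV+Vem (-0.05) turned in sign.

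Most lipocalin relatives of PTGDS did not pass the filter on low counts. Of 20 listed, 6 besides PTGDS were tested, and only APOD and PAEP were called in any of the comparisons with Vem, RSV or TCDD alone. APOD, a lipid carrier, rose with Vem by 0.40 ± 0.11 (edgeR adjusted p = 0.00614) and fell from RSV to RSV+Vem (-1.19 ± 0.11, edgeR adjusted p = 4.72e-07), against the rise of PTGDS. PAEP, known as glycodelin, rose with Vem by 0.71 ± 0.21 (edgeR adjusted p = 0.0078) and fell from RSV to RSV+Vem (-0.64 ± 0.18, edgeR adjusted p = 0.0149). Both rose from RSV to RSV+TCDD as PTGDS did, APOD by 0.82 ± 0.10 (edgeR adjusted p = 0.000245) and PAEP by 1.35 ± 0.17 (edgeR adjusted p = 0.000206). Under spike-in scaling APOD turned in sign with Vem (-0.26) and from RSV to RSV+TCDD (-0.21), PAEP was at 0.04 and 0.33 without a call, and the fall from RSV to RSV+Vem stayed called for APOD (-1.68) and not for PAEP (-1.17).

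Other genes known from the retinal pigment epithelium, where KCNJ13 is best studied, gave calls in both directions. Of 10 tested from a list of 18, 5 rose, 3 fell and 2 were not called with Vem (median 0.11, beside 25.5% of all genes higher and 26.9% lower), and 3 rose and 1 fell from RSV to RSV+Vem (median -0.15, beside 11.3% and 13.4%). Under spike-in scaling 1 rose and 2 fell with Vem, and from RSV to RSV+Vem 0 rose and 1 fell. SERPINF1, which encodes the secreted factor PEDF, rose with Vem by 1.78 ± 0.09 (edgeR adjusted p = 1.95e-11) and from RSV to RSV+Vem by 0.99 ± 0.08 (edgeR adjusted p = 1.65e-07). BEST1, a chloride channel, rose in both, by 1.22 ± 0.12 and 0.53 ± 0.12 (edgeR adjusted p = 1.56e-07 and 0.00333). RLBP1, which encodes a retinaldehyde-binding protein of the visual cycle, fell in both, by -4.61 ± 0.28 and -2.93 ± 0.16 (edgeR adjusted p = 3.23e-10 and 6.76e-10). With spike-in scaling both RLBP1 calls held, SERPINF1 held with Vem (1.13) and not from RSV to RSV+Vem (0.47), and BEST1 had no call (0.57 and 0.01).

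Within 100 kb of KCNJ13 or overlapping it, 2 genes were tested. EFHD1, 83026 bases away, had 1 to 17 counts per library and rose with Vem by 2.29 ± 0.70 (edgeR adjusted p = 0.0106) and from RSV to RSV+Vem by 2.09 ± 0.74 (edgeR adjusted p = 0.047), and GIGYF2 rose in the second comparison by 0.30 ± 0.10 (edgeR adjusted p = 0.0289). Within 100 kb of PTGDS 8 genes were tested, with log2 differences from -2.43 for SAPCD2, a regulator of spindle orientation, to 1.04 for LCN12 with Vem. Of these, 3 rose (FBXW5, UAP1L1 and ABCA2, by 0.93, 0.90 and 0.74) and 2 fell, beside 25.5% of all genes higher and 26.9% lower. From RSV to RSV+Vem, 1 rose (UAP1L1, 0.60) and 2 fell (NPDC1, -1.04, and SAPCD2, -0.87), beside 11.3% and 13.4%. LCNL1, the lipocalin gene that starts 162 bases beyond PTGDS, had 1 to 9 counts and did not pass the filter. With spike-in scaling the falls of SAPCD2 and NPDC1 with Vem and of NPDC1 from RSV to RSV+Vem remained called, the other named calls in this paragraph were lost, and GIGYF2 turned in sign (-0.23).

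The 2 genes were the top of a graded list, and those next to them in it differed in what RSV did. Of 3538 genes that met the same conditions, the following 6 by fitted rise with Vem included CTD-2006K23.1 (log2 difference 4.68), KNDC1 (4.66), HIST1H2AC (4.21), SLC5A10 (3.98) and CYP19A1 (3.91). These values sit just outside the choice and carry no test. Among KCNJ13, PTGDS and these genes, the RSV+Vem level was lower than the Vem level by 1 or more on the log2 scale for KCNJ13, KNDC1, SLC5A10 and CYP19A1 (-1.30, -1.68, -1.96 and -1.09). It was close to it or higher for PTGDS, CTD-2006K23.1 and HIST1H2AC (-0.19, -0.09 and 0.46). SLC5A10 encodes a sodium-coupled sugar transporter, CYP19A1 the aromatase and HIST1H2AC a histone H2A.

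From RSV to RSV+Vem, a comparison that took no part in the choice, these 5 genes rose. Here too the spread in the tests came from all 12 libraries. The rise was largest for CTD-2006K23.1 (5.00, edgeR adjusted p = 4e-07) and HIST1H2AC (2.97, edgeR adjusted p = 1.72e-09). It was 2.11 for SLC5A10 (edgeR adjusted p = 2.9e-06), 1.84 for CYP19A1 (edgeR adjusted p = 0.000217) and 1.83 for KNDC1 (edgeR adjusted p = 0.0182). Under spike-in scaling CTD-2006K23.1 (4.53) and HIST1H2AC (2.44) remained called, and SLC5A10, CYP19A1 and KNDC1 kept their direction without a call. Under TMM scaling PTGDS, at 3.28, stood between CTD-2006K23.1 and HIST1H2AC, and KCNJ13, at 2.34, between HIST1H2AC and SLC5A10.

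**Figure D4:**
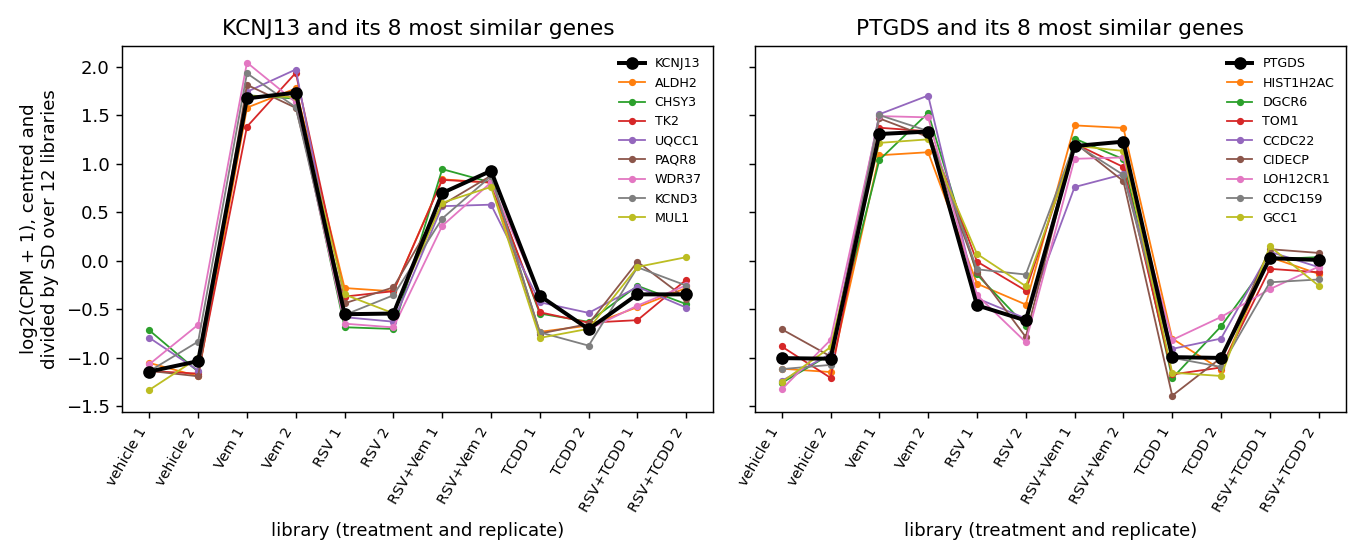
Level of KCNJ13 and PTGDS (black) and of the 8 genes most like each in the 12 libraries, as log2(CPM + 1) centred and divided by the SD over the libraries. All 8 genes beside KCNJ13, and all beside PTGDS except HIST1H2AC, had a lower mean in RSV+Vem than in Vem, and the choice by likeness favours a shared pattern.

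Over the 12 libraries the genes most like KCNJ13, by Pearson correlation of log2(CPM + 1) among 12676 genes, were ALDH2 (r = 0.984), a mitochondrial aldehyde dehydrogenase, CHSY3, TK2, UQCC1, PAQR8, WDR37, KCND3, a voltage-gated potassium channel (r = 0.978), and MUL1. For PTGDS they were HIST1H2AC (r = 0.985), DGCR6, TOM1, CCDC22, CIDECP, LOH12CR1, CCDC159 and GCC1. No gene was in both lists. KCNJ13 and PTGDS correlated with each other at r = 0.936, which placed PTGDS 179th for KCNJ13 and KCNJ13 130th for PTGDS. These are descriptions over libraries that share the treatment groups, with 2 libraries in each.

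Since these genes were chosen for their likeness over the same libraries, their values in Vem and RSV+Vem describe the choice. ALDH2 had a mean of 239 CPM with Vem and 174 CPM with RSV+Vem, and KCND3 had 14.9 and 8.23 CPM. Of the genes listed with PTGDS, HIST1H2AC was higher in RSV+Vem, with 30.9 CPM with Vem and 42.6 CPM with RSV+Vem, and the others had lower means, such as DGCR6 with 55.5 and 52.8 CPM and CCDC22 with 62.6 and 50.7 CPM. Levels of these genes are not comparable with each other without their lengths.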

How the data were processed

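The deposited table holds raw counts, per the labels and the study's methods: the authors aligned stranded mRNA read pairs with STAR 2.4.0a to hg19 and obtained counts for each gene symbol from featureCounts in Subread 1.5.0-p3, without normalization. The annotation release counted is not given in the sources used here. The 3 checked antisense RNAs within exons of well counted genes had at most 4 counts, so counts were not on the wrong strand. Positions were taken from GENCODE on GRCh37 and promoters from RefSeq on GRCh38.p14.

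The 96 control sequences were removed, filterByExpr by group left 16080 genes, and a robust quasi-likelihood model of the 6 groups was fitted over all 12 libraries with edgeR 4.0.16 (R 4.3.3) after TMM scaling (factors 0.890 to 1.08). F tests were adjusted by Benjamini-Hochberg over all tested genes, and calls were made below 0.05. The fits were tested on simulated data. Levels are CPM after TMM scaling, and SDs are over the libraries of a group. PCR copies were not removed, and intervals therefore cover counting error only. Both genes passed the filter.

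KCNJ13, PTGDS and all gene lists were chosen with earlier results of these data known, so comparisons that hold vehicle or Vem libraries are descriptions for these 2 genes. In the comparisons tested for them, the spread still came from all 12 libraries. Genes named otherwise are those with the largest called changes of each list, genes within 100 kb, the next 6 by rise with Vem (5 are described) and the 8 most correlated with each gene; pathway genes named for their role, such as HPGDS, PTGDR and PTGS1, were chosen after their values were seen. Alternatives were DESeq2 1.42.0, other scalings, filters, prior counts, a replicate block and leaving out each library. The interaction of RSV and TCDD was added after the counts were seen. Same-numbered replicates were not taken as paired: their deviations from the group means correlated between -0.36 and 0.42 over 15 pairs of groups, with 6 values above 0.1 and 4 under -0.1. The highest values were between RSV and RSV+Vem (0.42), RSV and RSV+TCDD (0.355), and RSV+Vem and RSV+TCDD (0.305). TCDD gave -0.364 with RSV, -0.273 with RSV+Vem and -0.281 with RSV+TCDD. A pairing within the RSV groups is therefore not excluded, and the replicate block among the alternatives allows for one. Some results that this rule covers are not reported here.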

Additional observations from a re-analysis of the deposited data

Results flagged for a closer look

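The flag covered the tested channel, prostaglandin, lipocalin and retinal pigment epithelium genes, 6, 13, 6 and 10 besides KCNJ13 and PTGDS. It also covered the 2 tested genes near KCNJ13 and the 8 near PTGDS, of which LCN12 and C8G are also lipocalins. Other lists and the genes next by rise with Vem were not part of it. For 13 of these genes the log2 effect of Vem with RSV differed from that without RSV. The interaction term was tested with edgeR (quasi-likelihood, Benjamini-Hochberg adjustment over all genes, of which 22.7% were called). Among the channels the difference was 1.28 for KCNJ2 (adjusted p = 0.00981) and 0.61 for KCNJ10 (adjusted p = 0.0299). In the prostaglandin pathway it was -0.74 for PTGES2 (adjusted p = 0.00247) and 1.02 for PTGES3 (adjusted p = 0.0282). Among the lipocalins it was -1.59 for APOD (adjusted p = 2.31e-06) and -1.35 for PAEP (adjusted p = 0.00186). Among genes known from the retinal pigment epithelium it was 1.68 for RLBP1 (adjusted p = 0.00501), -0.69 for BEST1 (adjusted p = 0.0066), -0.79 for SERPINF1 (adjusted p = 0.000128) and -0.44 for RDH11, a retinol dehydrogenase (adjusted p = 0.0246). Near PTGDS it was -1.02 for ABCA2 (adjusted p = 0.000668), -0.81 for FBXW5 (adjusted p = 0.00323) and 1.56 for SAPCD2 (adjusted p = 0.0001). With scaling to the spike-in controls all 13 lost their call and kept their sign, from an adjusted p of 0.593 for SAPCD2 upward, and 0.0498% of all genes were called in this interaction.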

How the results depend on the processing

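Calls at 2 libraries per group rest on a spread shared across genes, and vehicle levels of both genes rest on under 30 summed counts. Spike-in scaling gave Vem against vehicle as 4.48 (KCNJ13) and 4.24 (PTGDS), TCDD against vehicle as 1.09 and -0.46, the interaction of RSV and Vem for PTGDS as -1.50, RSV against vehicle for PTGDS as 1.26, and for KCNJ13 RSV+TCDD as -0.38 against TCDD and -0.61 against RSV, both turned in direction; for PTGDS RSV+TCDD against RSV fell to 0.16 and lost its call. Prior count 2 gave Vem against vehicle as 4.87 and 4.68, and for PTGDS the interaction of RSV and Vem as -1.47 and RSV against vehicle as 1.28. The share of genes called was 23.7% with spike-in scaling and 26.9% with no filter for Vem against vehicle, 2.99% and 13.1% for RSV+Vem against RSV, and 0.0498% and 12.3% for the interaction of RSV and Vem. The scaling itself moves all genes, and the cause was not tested. A minimum of 10 counts in every library removed both genes and gave them no value.

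Leaving out each library in turn lost none of the tested calls of KCNJ13 and PTGDS; the least certain was PTGDS in RSV+TCDD against RSV (adjusted p up to 0.0485, edgeR). For KCNJ13 the log2 differences ran from 4.95 to 5.38 for Vem against vehicle, from -3.03 to -2.59 for the interaction of RSV and Vem, from 1.31 to 1.72 for RSV against vehicle and from 1.12 to 1.87 for TCDD against vehicle. For PTGDS they ran from -1.79 to -1.40 for the interaction and from 1.21 to 1.60 for RSV against vehicle. The share of genes called ran from 12.1% (without RSV+Vem replicate 1) to 26.0% for RSV+Vem against RSV and from 14.5% (without Vem replicate 1; 14.9% without Vem replicate 2, 14.8% without RSV+Vem replicate 2) to 22.8% for the interaction. With the replicate block, RSV+Vem against RSV was 2.34 for KCNJ13 and 3.28 for PTGDS, and no call of either gene changed. Under all 19 alternatives the rise from RSV to RSV+Vem stayed called, from 1.78 to 2.53 for KCNJ13 (adjusted p at most 0.033) and from 2.74 to 3.48 for PTGDS (adjusted p at most 6.16e-05).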
